A study of Mus musculus with 6 samples.

Results

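The forkhead transcription factors described here are 9 genes of head ectoderm and eye: Foxe3, Foxd1, Foxi2, Foxc1, Foxc2, Foxp1, Foxp2, Foxp4 and Foxm1. They were picked by name from the 41 forkhead genes that the array annotation lists, and every probe carrying 1 of these 9 symbols was taken, 15 of the 62 forkhead probes and 9 of 17711 named genes. The set was chosen by its detection and by its difference between Pax6-/- and wild-type arrays in earlier results of the same data. The values of that comparison are therefore given as descriptions, with no test of a member.

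RNA came from laser-cut prospective lens tissue of single mouse embryos at embryonic day E10.25, on a mixed FVB and 129 background. The 3 wild-type embryos gave lens placode, the thickened head ectoderm from which the lens forms, and the 3 Pax6-/- embryos gave the surface ectoderm of the same place. Each embryo's 2 prospective lens areas were pooled on 1 Illumina bead array, after 15 ng of total RNA had been amplified to cDNA. Genotype and named tissue change together in this design, so a loss of Pax6 within a cell and a loss of the placode as a tissue cannot be told apart. Which Pax6 allele the embryos carried is not stated in the labels.

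Forkhead factors bind DNA through a winged-helix domain, and each acts in its own tissues. In the mouse eye, Foxe3 is known from the lens, Foxd1 from the temporal side of the retina, and Foxc1 and Foxc2 from the mesenchyme around the eye. Foxi2 is known from cranial ectoderm. Foxp1, Foxp2 and Foxp4 form dimers and mostly repress, and Foxm1 drives genes of late cell cycle in dividing cells.

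The arrays held 46632 probes, of which 35.0% to 40.2% were above background (a detection p under 0.05 against the negative-control beads of the same array). Raw median intensities were 55.2 to 64.3. Levels below are normalised log2 intensities. A probe counted as measured when it was above background on at least 3 of the 6 arrays, and 17751 probes were. Over these probes Pearson's r between arrays was 0.763 to 0.817 for pairs of wild-type arrays, 0.788 to 0.811 for pairs of Pax6-/- arrays and 0.719 to 0.815 for mixed pairs. The 3 Pax6 probes were above background on all 6 arrays and had log2 differences of -0.52 ± 0.26, -0.99 ± 0.30 and -0.82 ± 0.25 (SE), each without overlap of the genotypes. Markers of the lens were present in the wild type, with means over 9 measured genes of 8.35 to 8.85 per wild-type array and 5.35 to 5.60 per Pax6-/- array.

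The promoters of the 3 measured members whose genotypes did not overlap are shown because these genes carry the pattern described below. Each stretch is the 250 bases before the annotated start, from RefSeq on GRCm38.p6, and capitals mark matches to the motifs named after the sequences. Foxd1 lies on the plus strand at chr13:98353995-98354244, Foxi2 on the plus strand at chr7:135410117-135410366 and Foxe3 on the minus strand at chr4:114926068-114926317.
Foxd1: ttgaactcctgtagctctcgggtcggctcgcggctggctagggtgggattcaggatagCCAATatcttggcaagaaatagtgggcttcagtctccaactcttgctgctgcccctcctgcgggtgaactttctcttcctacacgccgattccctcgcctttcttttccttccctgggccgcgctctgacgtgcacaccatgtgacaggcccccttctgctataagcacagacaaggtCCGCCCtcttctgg
Foxi2: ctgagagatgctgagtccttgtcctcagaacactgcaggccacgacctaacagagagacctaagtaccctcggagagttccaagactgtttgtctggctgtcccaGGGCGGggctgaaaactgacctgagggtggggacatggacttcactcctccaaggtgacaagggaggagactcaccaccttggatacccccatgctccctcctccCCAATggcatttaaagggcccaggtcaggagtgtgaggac
Foxe3: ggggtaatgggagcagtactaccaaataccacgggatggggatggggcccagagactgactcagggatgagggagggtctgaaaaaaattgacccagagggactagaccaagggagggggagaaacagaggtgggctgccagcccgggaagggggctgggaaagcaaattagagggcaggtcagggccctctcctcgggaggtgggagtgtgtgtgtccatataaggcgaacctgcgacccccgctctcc

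On both strands 5 motifs were searched: CCAAT, the GC box GGGCGG, the forkhead core TGTTTA, the TATA box TATAAA and the homeodomain core TAATTA. Foxd1 and Foxi2 each held 1 CCAAT match and 1 GC box, and their matches did not overlap. Foxe3 held a match to none of the 5. Among 32851 promoters of the same length, 33.85% held CCAAT, 32.74% the GC box, 12.03% the forkhead core, 12.37% the TATA box and 4.84% the homeodomain core, so the matches in Foxd1 and Foxi2 are common ones. The GC content was 57.2% in Foxd1, 56.8% in Foxi2 and 60% in Foxe3, against a median of 52.4%. Foxd1 held 12 CpG dinucleotides, Foxe3 6 and Foxi2 3. Of the 9 genes, 6 had a promoter in the table. Foxc1 and Foxp4 had a GC content of 70.8% and 69.6%, with 29 and 27 CpG dinucleotides. The 3 promoters of Foxp1 ran from 45.2% to 74% GC and from 3 to 34 CpG dinucleotides, and were the member promoters with a match to the forkhead core.

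Among the measured members, Foxd1 and Foxi2 were higher on every Pax6-/- array than on any wild-type array, and Foxe3 was lower on every Pax6-/- array. The genotypes overlapped on the 9 other measured probes. In bulk tissue fewer cells of a type and less RNA per cell cannot be told apart, and this holds for every value that follows.

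Foxe3, which in mouse keeps lens epithelial cells dividing and is needed for the lens vesicle to close and separate, was a dim signal of the wild-type placode. Its only probe read 5.51, 5.61 and 5.72 on wild-type arrays 1, 2 and 3 and 5.06, 5.17 and 5.13 on Pax6-/- arrays 1, 2 and 3. It was above background on all 3 wild-type arrays and on no Pax6-/- array, and the genotypes did not overlap. Its detection p was 0.0125, 0.0156 and 0.0125 in the wild type and 0.1085, 0.0761 and 0.0873 in Pax6-/-. The split thus depends on the threshold of 0.05. With a detection p under 0.01 required on 3 arrays, Foxe3 was not measured. In raw intensity the wild-type arrays gave 101, 97.0 and 82.3, against 67.2, 67.7 and 63.5. The standard errors of the bead means on these arrays were 3.06 to 4.98, while the lowest wild-type and highest Pax6-/- arrays were 82.3 and 67.7. The log2 difference was -0.49 ± 0.22 (SE). Since Pax6-/- has only a bound, Foxe3 was at least 1.30-fold lower there. With arrays scaled to a common median the genotypes overlapped, and the difference was -0.21 while the median of all probes stood at 0.18.

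Foxd1 had the largest difference of the members. Its probe read 5.43, 4.82 and 5.05 in the wild type and 7.86, 8.78 and 8.09 in Pax6-/-. The lowest Pax6-/- array was above the highest wild-type array by more than the whole spread of either genotype. Foxd1 was above background on wild-type array 1 and on all 3 Pax6-/- arrays, so the wild-type level is mostly background. Raw intensities were 96.2, 51.5 and 58.1 in the wild type and 241, 467 and 277 in Pax6-/-. The log2 difference was 3.14 ± 0.34 (SE), against a wild-type mean that rests on 1 detected array. Without any 1 array it ran from 2.87 to 3.33.

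Foxi2, known in mouse from cranial ectoderm, was detected in Pax6-/- tissue alone. It read 4.96, 5.05 and 5.03 on the wild-type arrays, none above background, and 8.04, 7.73 and 7.08 on the Pax6-/- arrays, all above background. Raw intensities were 61.5, 67.5 and 56.9 against 266, 244 and 158, with bead standard errors of at most 12.0. The difference was 2.61 ± 0.31 (SE) on the log2 scale, and Foxi2 was at least 5.46-fold higher in Pax6-/-. Without any 1 array the log2 difference ran from 2.39 to 2.87.

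**Figure D1:**
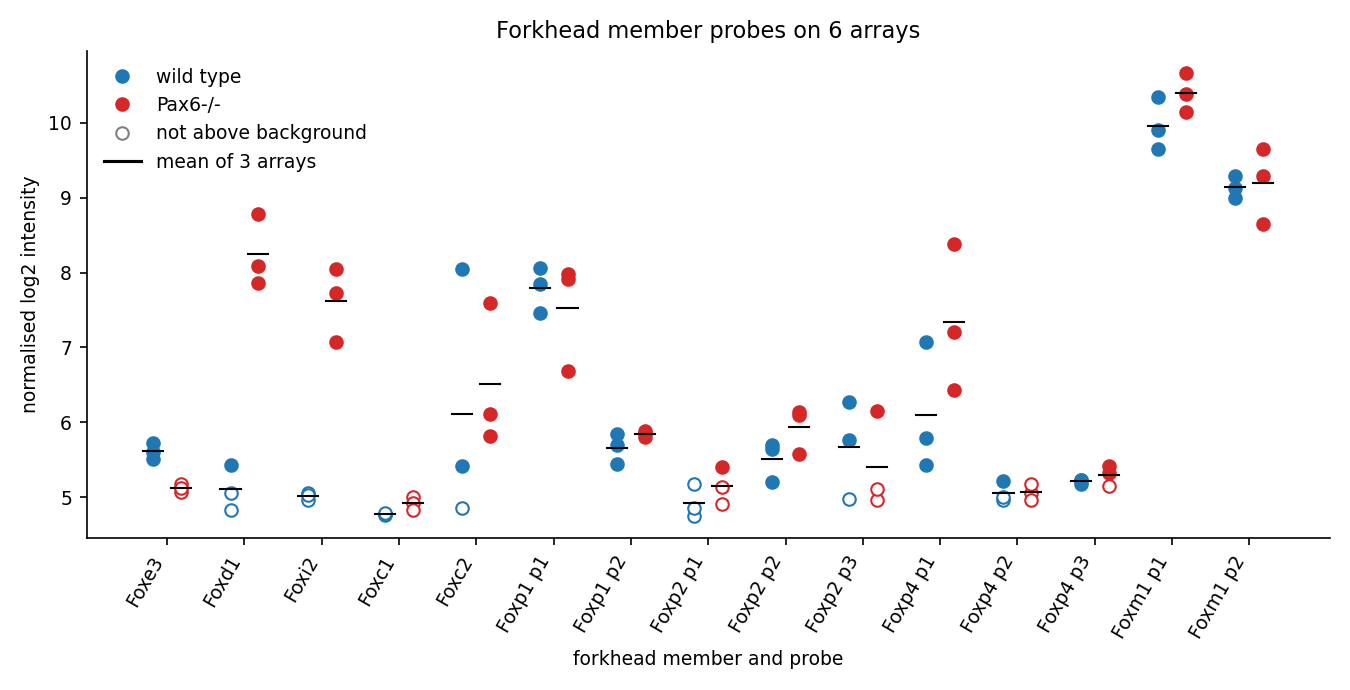
Normalised log2 intensity (vertical axis) of each of the 15 member probes (horizontal axis) on 3 wild-type arrays (blue) and 3 Pax6-/- arrays (red), with open circles where the probe was not above background and a bar at the mean of 3 arrays. Foxd1 and Foxi2 lie between 7.08 and 8.78 on the Pax6-/- arrays and at 5.43 or below on the wild-type arrays, and Foxe3 is open on the Pax6-/- arrays alone.

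Foxc1 and Foxc2 are closely related factors of periocular mesenchyme and of vessels. Foxc1 was not above background on any of the 6 arrays. Its raw intensity was 46.0, 47.3 and 41.5 in the wild type and 63.5, 56.2 and 46.4 in Pax6-/-, which overlap. Its normalised values were 4.77, 4.78 and 4.78 against 5.00, 4.92 and 4.83, which do not, but all 6 lie within background and the probe gives no level to compare.

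Foxc2 varied more between embryos of a genotype than between genotypes. It read 5.42, 4.85 and 8.04 in the wild type and 6.11, 7.59 and 5.82 in Pax6-/-, and was above background on 2 wild-type and 3 Pax6-/- arrays. Wild-type array 3 had the highest value of all 6 and wild-type array 2 the lowest. In raw intensity the wild-type embryos spanned 53.7 to 241, a 4.49-fold range, while bead errors were 3.53% to 5.40% of the signal. The log2 difference was 0.40 ± 0.94 (SE). It was 1.37 without wild-type array 3, and -0.23 and -0.14 without wild-type array 2 or Pax6-/- array 2.

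The Foxp genes encode repressors with a zinc finger and a leucine zipper beside the forkhead domain. They have 8 of the 15 probes, and the genotypes overlapped on each. The 2 probes of Foxp1 were above background on all 6 arrays. The brighter, ILMN_1252078, read 7.46, 7.84 and 8.06 in the wild type and 7.91, 7.99 and 6.69 in Pax6-/-, with Pax6-/- array 3 apart from the rest. Its log2 difference was -0.26 ± 0.43, and 0.16 without that array. The dimmer probe, annotated to a cDNA clone, had 0.19 ± 0.23 and lay between 5.45 and 5.88 on every array.

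Foxp2 was dim on its 3 probes. ILMN_2602051 was above background on all 6 arrays, at 5.21, 5.69 and 5.64 in the wild type and 6.14, 5.58 and 6.10 in Pax6-/-, a log2 difference of 0.43 ± 0.29. ILMN_2701613 had -0.26 ± 0.48 and was above background on 3 arrays in all, and its difference was 0.04 without wild-type array 2. The last probe was above background on Pax6-/- array 3 alone and was not tested. The 2 measured probes thus differed in sign, each within about 1.5 SE of zero.

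Foxp4 had the largest difference among the Foxp genes, on 1 of its 3 probes. ILMN_1237606 read 5.79, 5.43 and 7.07 in the wild type and 6.43, 8.39 and 7.21 in Pax6-/-, all above background. Wild-type array 3 lay above Pax6-/- array 1, so the genotypes overlapped. The log2 difference was 1.24 ± 0.65, 0.72 without Pax6-/- array 2 and 1.73 without wild-type array 3. This probe is annotated to a cDNA clone. The probe annotated to the RefSeq transcript, ILMN_2650317, had 0.08 ± 0.22 at levels of 5.15 to 5.42, close to background, and the remaining probe was above background on 1 array.

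Foxm1, the late cell cycle factor, was above background on all 6 arrays with both of its probes. Its probe ILMN_1231042 read 9.90, 9.65 and 10.34 in the wild type and 10.38, 10.67 and 10.14 in Pax6-/-. ILMN_1239314 read 9.13, 8.99 and 9.29 against 9.29, 9.66 and 8.65. The genotypes overlapped on both, with log2 differences of 0.43 ± 0.29 and 0.06 ± 0.33. On the dimmer probe Pax6-/- arrays 2 and 3 were the highest and the lowest of all 6.

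Of the 15 member probes 12 were measured, from 8 of the 9 genes. In the limma fit over all 17751 measured probes 0 of the 12 passed an adjusted p of 0.05, where 0.0620% of all probes did, and 2 had an unadjusted p under 0.05, where 8.96% did. The genotypes did not overlap on 3 of the 12, against 15.0% of all measured probes. The median log2 difference was 0.29 over the 12 and 0.05 over all probes, with 9 positive and 3 negative. Since the members were chosen on this comparison, nothing is read from these shares. Without wild-type array 3, the probes without overlap were 7 of 12 and 32.7% of all probes. Without Pax6-/- array 1 they were 5 of 12 and 26.4% of all probes, and without Pax6-/- array 2 they were 5 of 12 and 24% of all. Foxe3, Foxd1 and Foxi2 were among them whichever array was left out. This had to be so, since removing an array cannot create an overlap, and it says nothing on how stable they are. Over all probes 2 were called higher and 9 lower in Pax6-/-. That split was 0 and 3 with an offset of 50, 0 and 4 with median scaling or cyclic loess, and 8 and 9 on the authors' processed values.

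**Figure D2:**
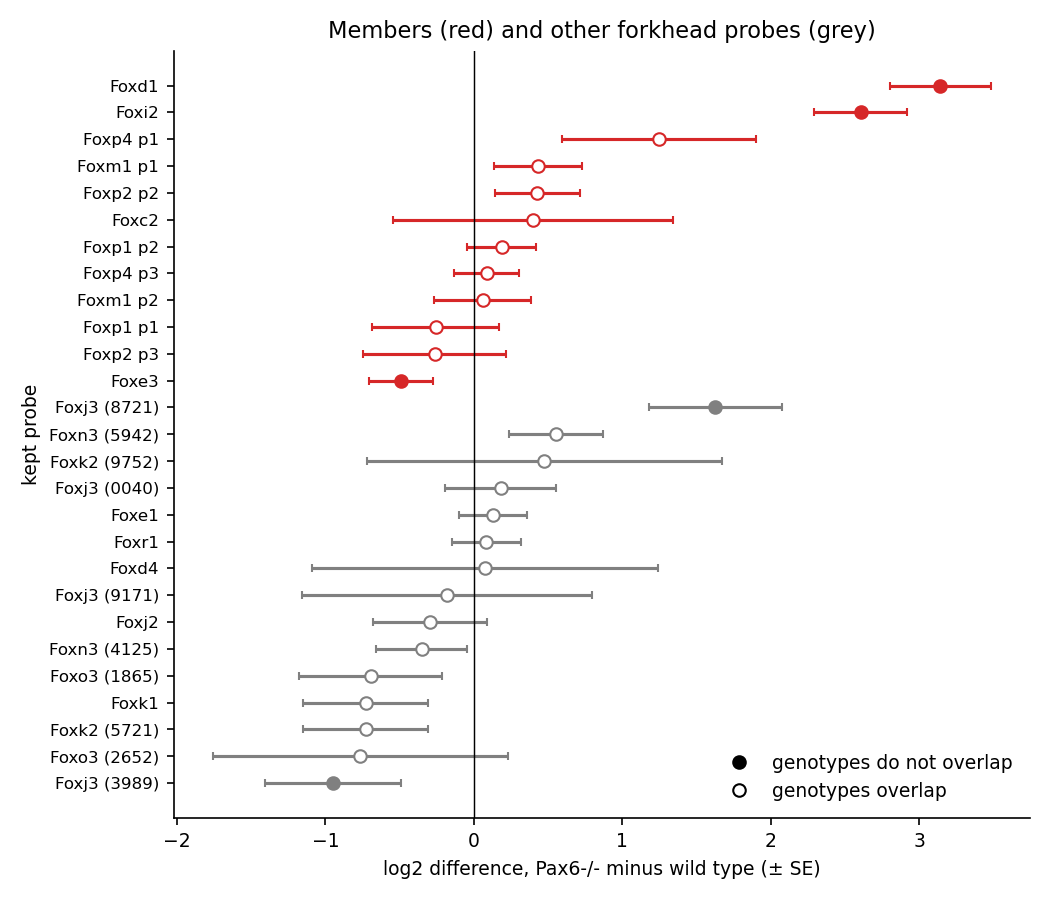
Log2 difference, Pax6-/- minus wild type, with its SE (horizontal axis) for the 12 measured member probes (red) and the 15 other measured forkhead probes (grey, last 4 digits of the probe name where a gene has several), with filled points where the genotypes do not overlap. Foxd1 at 3.14 and Foxi2 at 2.61 lie to the right of every other forkhead probe.

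Of the 41 genes of the whole forkhead family, 20 were above background on no array, 9 on all 6 and 12 on some. An array detected 14 to 17 of them, with no gap between the genotypes. At a detection p under 0.05, Foxe3 and Foxi2 were the 2 forkhead genes above background on all 3 arrays of 1 genotype and on none of the other. Of all named genes 0.903% showed this pattern (110 in the wild type and 50 in Pax6-/-).

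**Figure D3:**
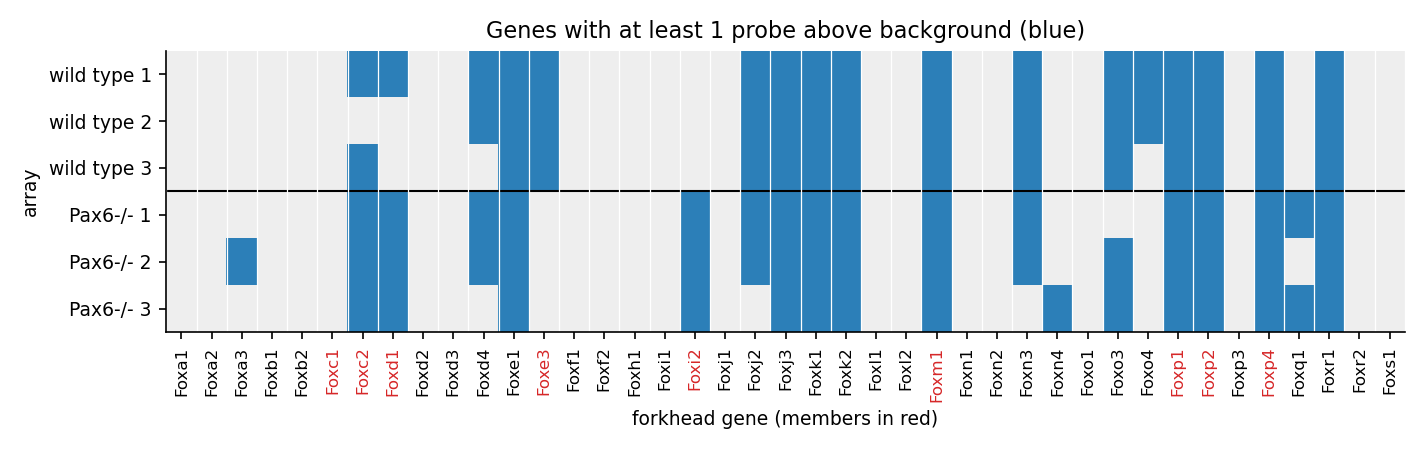
Detection of the 41 forkhead genes (horizontal axis, members in red) on each of the 6 arrays (vertical axis), blue where at least 1 probe was above background. Foxe3 is blue on the 3 wild-type arrays alone, Foxi2 on the 3 Pax6-/- arrays alone, and Foxc1 on none.

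The 32 other forkhead genes had 47 probes, and 15 probes of 9 genes were measured. In limma 0 of the 15 passed an adjusted p of 0.05 and 1, a Foxj3 probe, had an unadjusted p under 0.05. Over all measured probes these shares were 0.0620% and 8.96%. The median log2 difference of the 15 was -0.18. The 4 genes with the largest differences on their brightest probe did not pass. Foxo3, a factor of stress and growth-factor response, had -0.76 ± 1.00 (SE). Foxk1 and Foxk2, broadly expressed regulators, had -0.73 ± 0.42 and 0.47 ± 1.19, and wild-type array 2 was far below the other arrays for Foxk2, at 6.59 against 9.85 to 11.16. Foxn3, a repressor, had -0.35 ± 0.31.

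Several members sit beside other forkhead genes in the genome. Foxe3 on chromosome 4 has Foxd2 as its neighbour, Foxc1 on chromosome 13 lies beside Foxf2 and Foxq1, and Foxc2 on chromosome 8 beside Foxl1 and Foxf1. Foxd2, Foxf2, Foxl1 and Foxf1 were above background on no array. Foxq1 was above background on Pax6-/- arrays 1 and 3, at 7.23 and 7.83, and on no other array. Foxd1 and Foxi2 had no forkhead gene within 3 genes on either side.

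Genes linked to Foxe3 in earlier lens work were mostly lower in Pax6-/-. Maf, Prox1, Pitx3, Six3 and Cryaa on this list are also on the lens marker list, and the part of lens loss in these values was not tested. Of 14 listed genes 12 were measured. In limma 2 of the 12 fell at an adjusted p of 0.05 and 0 rose, and at an unadjusted p of 0.05 there were 7 lower and 0 higher. Over all measured probes 0.0620% passed the adjusted and 8.96% the unadjusted threshold, in either direction. These shares also stand beside the counts of every list below. The median log2 difference was -1.36, against 0.05 over all probes. Maf, which drives crystallin genes, fell from 10.69 ± 0.12 to a level not above background, at least 44.1-fold (SD, limma adjusted p = 0.0034). Maf and Pitx3 were above background on the 3 wild-type arrays alone, so they counted as measured only through the genotype where they are high. Prox1, a homeobox factor of lens fibre elongation, fell from 10.68 ± 0.50 to 5.16 ± 0.23 (limma adjusted p = 0.027). Mab21l1, needed in mouse for lens growth and for Foxe3 expression, was at 10.84 ± 0.18 and 9.11 ± 0.35 and did not pass (limma adjusted p = 0.13). Of all 59 measured genes on the pathway and forkhead lists, among which Maf and Prox1 were the 2 called, 0 passed when wild-type array 1 was left out, and likewise for each Pax6-/- array. Leaving out wild-type array 3 gave 1 and wild-type array 2 gave 2. Dnajb1, a chaperone gene tied to human FOXE3, had 0.13 ± 0.22 (SE).

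Genes of the late cell cycle programme that Foxm1 drives gave no call in either direction. Of 25 on the array 21 were measured, and 0 passed an adjusted p of 0.05 in limma, with 1 higher and 0 lower at an unadjusted p of 0.05. The median log2 difference was -0.15. Skp2, which targets cell cycle inhibitors for degradation, was at 9.24 ± 0.54 and 10.23 ± 0.44 (SD), Kif2c, a mitotic kinesin, at 8.26 ± 0.30 and 7.08 ± 1.07, and Cdc25b, a phosphatase of mitotic entry, at 6.13 ± 0.54 and 6.80 ± 0.13. Plk1, a mitotic kinase, had a log2 difference of 0.11 ± 0.22 (SE).

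Corepressors that bind Foxp factors were measured for 10 of 11 genes. In limma 0 passed an adjusted p of 0.05, and 1 was higher and 2 lower at an unadjusted p of 0.05, with a median log2 difference of -0.10. The subunits Gatad2b and Gatad2a of the NuRD complex had -2.05 ± 0.50 and 2.20 ± 0.84 (SE), and the NuRD helicase Chd4 had -0.87 ± 0.27. Gatad2b was above background on 2 Pax6-/- arrays and Gatad2a on 2 wild-type arrays.

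Genes of other placodes and of cranial ectoderm were measured for 7 of 12 on the array. In limma 0 passed an adjusted p of 0.05, with 1 higher and 1 lower at an unadjusted p of 0.05 and a median log2 difference of 0.42. Otx1, a homeobox gene of the anterior head, was at 9.07 ± 0.66 and 6.42 ± 0.59 (SD), Dlx5 at 7.86 ± 0.35 and 8.86 ± 0.11, and Six4 at 6.10 ± 0.94 and 5.10 ± 0.29.

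Markers of several tissues moved beside the members. Summed over a list, the optic cup and neuroectoderm markers (11 of 14 on the array measured) gave linear intensities of 760 to 970 on wild-type arrays and 1573 to 2972 on Pax6-/- arrays. The mesenchyme and neural crest markers (12 of 17) gave 1709 to 3606 and 4545 to 6305. The surface ectoderm markers (15 of 17) gave 6589 to 7439 and 7905 to 9601. The sums did not overlap for these 3 lists. A linear sum is weighted to the brightest genes and does not show that a list moved as a whole. Tfap2b, the brightest surface ectoderm marker in Pax6-/-, had means of 9.75 in the wild type and 11.36 in Pax6-/-. Of the 15 measured ectoderm markers 8 were positive and 7 negative. In limma 0 genes of these lists passed an adjusted p of 0.05. At an unadjusted p of 0.05, 4 optic cup genes were higher and 0 lower, 4 mesenchyme genes higher and 0 lower, and 3 ectoderm genes higher and 1 lower. Of all measured probes 8.96% reached that threshold in either direction. Above background on no array were Vax2 and Zic2 of the optic cup, Sox10 and Snai1 of the crest and mesenchyme, and Krt14 and Grhl1 of the ectoderm.

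Foxd1 was high on the same Pax6-/- arrays as several optic cup markers. Of the 11 measured, 8 were positive and 3 negative, and the 3 with the smallest p are given next. Rax, which specifies the eye field, was at 5.03 ± 0.21 in the wild type and 6.93 ± 0.95 in Pax6-/- (SD), Otx2 at 5.66 ± 0.75 and 7.78 ± 0.85, and Zic1 at 7.02 ± 1.23 and 9.53 ± 0.71. The list means were 5.92, 6.10 and 5.99 on wild-type arrays 1, 2 and 3 and 6.74, 6.88 and 7.17 on Pax6-/- arrays 1, 2 and 3. Among the Pax6-/- arrays both Foxd1 and the optic cup list were lowest on array 1, while Foxd1 was highest on array 2 and the list on array 3. The mesenchyme, red blood cell and lens list means were highest on array 2. The pattern was not particular to optic cup markers: mesenchyme, surface ectoderm, endothelial and red blood cell list means were also higher on every Pax6-/- array than on any wild-type array. The part of optic cup tissue in the Foxd1 difference was not tested.

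Surface ectoderm markers differed in both directions beside Foxi2, with 8 of the 15 measured genes positive and 7 negative and a median log2 difference of 0.29. The 3 with the smallest p were higher in Pax6-/- and did not pass the adjusted test. Pkp3, a desmosomal plakophilin, was at 7.20 ± 0.28 and 9.38 ± 0.30 (SD), Tfap2b, an AP-2 factor, at 9.75 ± 0.26 and 11.36 ± 0.10, and Grhl3, an epidermal grainyhead factor, had no wild-type array above background and a Pax6-/- level at least 3.15-fold higher. The epithelial adhesion gene Epcam and the AP-2 factor gene Tfap2c were lower without overlap, at -0.80 ± 0.22 and -0.78 ± 0.35 (SE). The ectoderm list means were 8.17, 8.22 and 8.06 in the wild type and 8.94, 8.78 and 8.42 in Pax6-/-. Among the Pax6-/- arrays, Foxi2 and the list both had array 1 highest and array 3 lowest, an order that the endothelial list means shared. The part of a different share of ectoderm in the Foxi2 difference was not tested.

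Foxc2 stood highest on the arrays of each genotype that were highest in mesenchyme markers. The mesenchyme list means were 6.36, 6.49 and 7.05 in the wild type and 7.67, 7.91 and 7.25 in Pax6-/-. Wild-type array 3 and Pax6-/- array 2 led their genotypes in both. The same arrays also led for the lens genes linked to Foxe3, at 9.42 and 7.49. Nor was this particular to Foxc2 among the members. ILMN_1252078 of Foxp1, ILMN_1237606 of Foxp4 and both probes of Foxm1 were also highest on these arrays within each genotype. Across genotypes the order was not shared: wild-type array 3, the highest in Foxc2, had a lower mesenchyme mean than every Pax6-/- array. Twist2, a mesenchymal bHLH factor, was at least 2.96-fold higher in Pax6-/-, Col5a1, a fibrillar collagen, was at 8.70 ± 0.49 and 10.15 ± 0.25 (SD), and Prrx2, a homeobox factor, at 5.97 ± 0.56 and 8.07 ± 0.96. Endothelial list means were 6.30, 6.31 and 5.95 in the wild type, where the array with the highest Foxc2 was the lowest, and 6.91, 6.76 and 6.75 in Pax6-/-. Of 13 endothelial genes 6 were measured, with 1 higher and 1 lower at an unadjusted limma p of 0.05, and the sums were 425 to 611 and 793 to 868. Cldn5, a tight junction gene, had 2.23 ± 0.38 (SE), Egfl7, a secreted vessel factor, -1.35 ± 0.39 and Kdr, a VEGF receptor, 0.43 ± 0.22. Tie1, Sox18 and Erg were above background on no array. The part of mesenchyme or vessels in the Foxc2 values was not tested.

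Of 8 red blood cell markers 6 were measured, with sums of 468 to 3179 on wild-type arrays and 3847 to 5766 on Pax6-/- arrays. In limma 0 of the 6 passed an adjusted p of 0.05, and 4 were higher and 0 lower at an unadjusted p of 0.05. Slc4a1, the anion exchanger, had 2.74 ± 0.47 (SE), Car2, a carbonic anhydrase, 1.24 ± 0.37 and Hba-x, an embryonic globin, 2.63 ± 0.82. Epor was above background on no array. Lens markers, with 9 of 12 measured, summed to 5822 to 6243 on wild-type arrays and 468 to 582 on Pax6-/- arrays. In limma 3 fell: Maf and Prox1, already counted among the genes linked to Foxe3, and Crybb3, a beta-crystallin (limma adjusted p = 0.033). Cryba2 and Lim2 were above background on no array. Maf, Pitx3 and Crygc counted as measured through the wild-type arrays alone.

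**Figure D4:**
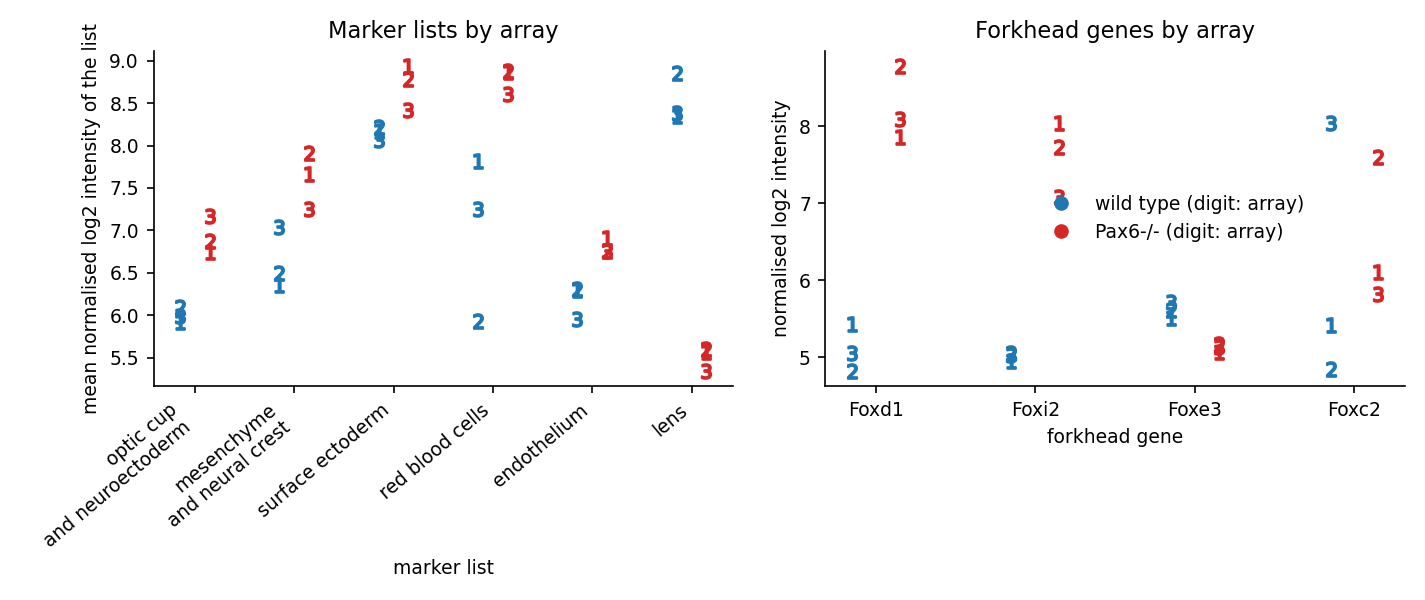
Mean normalised log2 intensity of 6 marker lists (left) and normalised log2 intensity of 4 forkhead genes (right) on each array, with digits naming the array, wild type in blue and Pax6-/- in red. Foxc2 is highest on wild-type array 3 and Pax6-/- array 2, which also lead their genotypes in the mesenchyme list. Probes of Foxp1, Foxp4 and Foxm1, not drawn here, were highest on the same arrays.

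The genes whose pattern over the 6 arrays was most like Foxd1 were Pkp3 (Pearson r = 0.995), Mkrn3 (0.991) and Vstm2b (0.986). Those most like Foxi2 were Rnf144b (0.998), Evl (0.998) and Tmem178 (0.994). Their log2 differences were 2.18, 1.18 and 2.56, and 3.76, 0.83 and 1.28. The 6 arrays fall into 2 genotypes, so a wide gap between the genotypes can by itself raise r. Of 9187 genes compared, 39 had an r over 0.95 with Foxd1 and 40 with Foxi2.

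Bead error and the spread between embryos differed by probe. Member probes rested on 21 to 77 beads per array, with bead standard errors of 1.70% to 5.92% of the signal. The highest wild-type array exceeded the lowest by 1.14-fold to 4.49-fold in raw intensity, and the highest Pax6-/- array by 1.05-fold to 2.95-fold. The narrowest Pax6-/- ranges, 1.05-fold for ILMN_2552236 of Foxp1 and 1.07-fold for Foxe3, were close to the bead error. The probes with the widest ranges were Foxc2 in the wild type and ILMN_1237606 of Foxp4 in Pax6-/-.

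**Figure D5:**
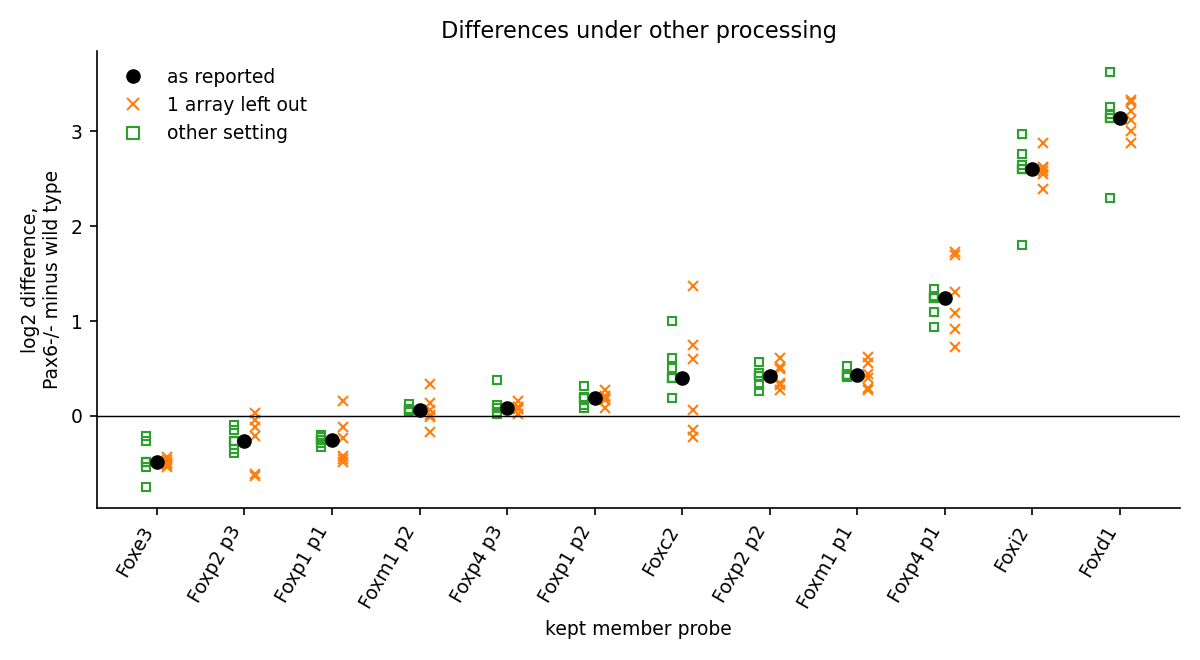
Log2 difference, Pax6-/- minus wild type (vertical axis), of the 12 measured member probes as reported (black), with 1 array left out (orange crosses) and under other settings (green squares). Foxd1 stays between 2.30 and 3.63, Foxi2 between 1.80 and 2.97 and Foxe3 between -0.75 and -0.21, while Foxc2 spans -0.23 to 1.37.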

How the data were processed

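Mean bead intensity, number of beads, bead standard error and detection p-value per probe come from the deposited non-normalised table, per the file headers, as GenomeStudio output per the submitters' processing notes (version not given in the sources used here). A second deposited table of the authors' processed intensity values, linear and partly below 0, served as an alternative. How the authors normalised it is not stated. Groups and replicate numbers came from sample titles.

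From the raw intensities, neqc of limma 3.58.1 (R 4.3.3) ran normexp background correction from the detection p-values, offset 16, quantile normalisation, log2. The offset shrinks differences of dim probes. The 17751 probes with a detection p under 0.05 on at least 3 arrays were fitted with lmFit and eBayes, Pax6-/- against wild type, with Benjamini-Hochberg adjustment. The script was tested on simulated data. With 3 arrays per genotype no exact permutation p can go below 0.1, and that number limits all precision. Where a genotype was not above background on any array, "at least" sets the other genotype's mean against a bound: on each dim array, the probe's own value or the lowest detected signal, whichever is higher, averaged over the arrays.

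Probes were named by the platform annotation (29976 with 1 symbol, 10 with several, 16646 with none), and all 15 member probes matched the RefSeq gene table of GRCm38.p6. List genes used their brightest measured probe. Members and lists were chosen with earlier results of these data known. Named were every member probe, the 4 other forkhead genes with the largest difference, up to 3 genes of each list with the smallest p, and the 3 genes most correlated with each of 2 members. Dnajb1, Plk1, Epcam, Tfap2c, Foxj3 and the neighbours of members were named outside that rule, after their values were seen. Alternatives covered background offset, normalisation, filters, probe choice, spread model, replicate block and each array left out.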

Additional observations from a re-analysis of the deposited data

How the results depend on the processing

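The count of 11 probes past an adjusted p of 0.05 depended on the processing. It was 3 with an offset of 50, 4 with median scaling, 4 with cyclic loess, 17 on the authors' processed values and 3 with a trended, robust spread. It was 11 with no filter on dim probes, 12 with a detection p under 0.01 on 3 arrays and 12 with 1 probe per gene. In each of these settings 2 list genes were called. With detection required on all 6 arrays, which left 10725 probes, limma called 0 (962 at an unadjusted p of 0.05), and the counts of list genes called and of member probes without overlap were both 0 as well (7 list genes at an unadjusted p of 0.05). It tests fewer genes and drops Maf, Prox1, Foxd1, Foxi2 and Foxe3. With the replicate block, 0 probes (1514 unadjusted) and 0 list genes (12 unadjusted) were called. Same-numbered arrays deviated together at correlations of 0.00015, -0.0023 and -0.0095, and not every array correlated best with its own number. In the file headers, same-numbered arrays carry neighbouring letters (A and B, C and D, E and F). Whether they also share a litter or a processing step is not stated in the labels, and these correlations cannot decide it. Leaving out 1 array at a time gave 0 to 2 probes and 0 to 2 list genes of the 59 measured. It gave 3 to 7 member probes without overlap, where 22.6% to 32.7% of all probes had none. The number of member probes cannot fall below the 3 seen with all arrays, since removing an array cannot create an overlap. 0 member probes passed under any of these settings. The differences of Foxe3, Foxd1 and Foxi2 kept their sign in every alternative run that measured them. Foxe3 was measured in 14 of these runs, and Foxd1 and Foxi2 in 15 each. The members were chosen on this comparison, so a kept sign is no support for it. With an offset of 50 the differences were -0.27, 2.30 and 1.80, and on the authors' processed values -0.75, 3.63 and 2.97. Relative to the shift of all probes under median scaling, 0.18, they were -0.39, 3.08 and 2.58. The dimmer Foxm1 probe turned to -0.17 without Pax6-/- array 2 and changed sign without wild-type array 2, as given above for Foxc2, 1 Foxp1 and 1 Foxp2 probe. The cause of these shifts was not tested. Signals close to background limit Foxe3, Foxc1, Foxp2 and most Foxp4 probes.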

Other observations

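Foxj3, a forkhead gene outside the 9 and singled out here after its values were seen, had 5 probes that did not share a direction. The brightest, ILMN_2650040, was at 9.96 ± 0.65 in the wild type and 10.14 ± 0.10 in Pax6-/- (SD, 3 arrays each). ILMN_1218721 was higher in Pax6-/- without overlap, at 5.26 ± 0.44 and 6.88 ± 0.71. ILMN_2733989 was lower without overlap, at 5.90 ± 0.86 in the wild type with 0 Pax6-/- arrays above background. ILMN_2688740 passed detection on 2 arrays, both wild type. Which transcript each probe reads was not tested.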
